A study of Mus musculus with 9 samples.

Results

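The MYC, MAX and MXD network is a family of basic helix-loop-helix leucine zipper transcription factors that share the partner MAX. Its members were taken by gene symbol from the deposited count table: Myc, Mycn, Mycl, Max, Mxd1, Mxd3, Mxd4, Mxi1, Mnt and Mga, which are 10 of the 55401 genes listed. Of these, 9 had enough counts to be tested among 16762 genes in all, and Mycl did not. The rule names genes by symbol and uses no measured value, though the list was drawn up with earlier results of these data known.

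The cells were primary ventricular myocytes of 1-day-old wild-type C57BL/6J mice (NMVMs, neonatal mouse ventricular myocytes), sequenced as poly(A)-enriched RNA in 9 libraries. In the control group, 3 libraries came from cells kept in normoxia in complete DMEM with fetal bovine serum. In the hypoxia group, 3 libraries came from cells held for 6 h in a sealed AnaeroPack chamber in DMEM that lacked glucose and serum. In the hypoxia + rSRGN group, 3 libraries came from cells given the same chamber and medium plus recombinant SRGN (serglycin, a secreted proteoglycan). Low oxygen and the loss of glucose and serum changed together, so their effects cannot be told apart. The labels do not say whether the libraries of a group came from separate cultures or animals, so the p-values measure the spread between these libraries, which may be technical. In bulk RNA, fewer cells of a type and less RNA per cell cannot be told apart.

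MAX is the hub of the network. MYC, MYCN and MYCL pair with MAX on E-box DNA (CACGTG) and recruit coactivators, which raises genes of growth, ribosome assembly and metabolism. The MXD proteins, among them MXI1, and MNT pair with MAX on the same sites and recruit the SIN3 corepressor with histone deacetylases. MGA pairs with MAX inside a Polycomb complex, PRC1.6. MYC drives proliferation in the fetal heart and is low in mature cardiomyocytes, whereas MXD genes are typically expressed in differentiated or resting cells.

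Because the proteins bind E-boxes, the promoters of the members were searched for the same letters. RefSeq promoter windows (GRCm38.p6, 250 bases before to 50 bases after a transcript start) were matched for 9 of the 10 members, and Myc had no entry. The palindrome CACGTG occurred in windows of 3 members, against 8.09% of all genes and 7.15% of the 32851 windows. The members' windows that held it are printed below from the strand of the gene, with 12 bases on each side and the E-box in capitals, because they show where a network site lies in a network gene. They come from chr12:76962234-76962263 (minus strand) for Max, chr5:34187912-34187941 (minus strand) for Mxd4 and chr11:74830789-74830818 (plus strand) for Mnt.
Max: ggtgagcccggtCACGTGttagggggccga
Mxd4: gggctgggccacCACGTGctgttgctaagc
Mnt: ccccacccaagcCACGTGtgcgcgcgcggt
The first base of the E-box lay 3 bases before the transcript start in Max, 219 bases before it in Mxd4 and 123 bases before it in Mnt. A second search used ACGTG, a form of the core of the hypoxia response element, on both strands and outside any CACGTG. The other form, GCGTG, was not searched. These letters occurred in 15.3% of all genes and in 2 members, Mxi1 and Mga. For Mxi1, which is known in other cells as a target of the hypoxia-inducible factor, 2 of 3 annotated starts had a match, at chr19:53329335-53329363 and chr19:53329658-53329686 (plus strand), shown with the match in capitals. The window of the most upstream start, at 53310256 to 53310555 on chromosome 19, held neither motif.
Mxi1, middle start: cctcggcacccgACGTGcactggcggggg
Mxi1, most downstream start: tgcggatgatcaACGTGcagcgcctgctg
These matches lay 66 and 25 bases before their starts. The match of the most downstream start lay downstream of the middle start, so it may fall inside the transcript from that start. The Mga match lay 8 bases before its start, at chr2:119897208-119897236 (plus strand). A match of letters is a description and does not show that a factor was bound.

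Counts assigned to genes were 21669017 to 22781557 per library in the control group, 16583985 to 18148474 in hypoxia and 16640239 to 20826701 in hypoxia + rSRGN. Levels are given as CPM (counts scaled to a fixed total per library) on library sizes scaled by the trimmed mean of M-values, and as CPM per kilobase of exon where genes are compared with each other. A gene was called higher or lower when edgeR's quasi-likelihood test gave a Benjamini-Hochberg adjusted p under 0.05 over all tested genes and the fold change was at least 1.5 (0.585 on the log2 scale). The cells carried cardiomyocyte markers in each group, but the summed level of 20 such genes ran from 60940 to 74060 CPM in the control group, from 5131 to 8044 CPM in hypoxia and from 10520 to 11190 CPM in hypoxia + rSRGN. All 20 were lower in hypoxia than in control. The sum of 15 fibroblast markers was 11160 to 13090 CPM in control, 23200 to 26340 CPM in hypoxia and 25600 to 26640 CPM in hypoxia + rSRGN, and 12 of the 15 were higher in hypoxia than in control. The sum of 13 macrophage markers was 235.3 to 252.2 CPM in control and 25.52 to 28.96 CPM in hypoxia, with Cd163 at 0 in both groups. The sum of 12 endothelial markers was 122.6 to 157.7 CPM in control and 115.2 to 133.1 CPM in hypoxia, with 8 of the 12 lower, and that of 9 smooth muscle and pericyte markers was 1107 to 1258 and 920.3 to 971.9 CPM. Mitochondrial rRNA took 0.195% to 0.239% of the counts in control, 2.31% to 2.61% in hypoxia and 2.27% to 2.67% in hypoxia + rSRGN. The part of these shifts of markers and mitochondrial rRNA in the changes of the network genes was not tested.

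In control cells the network transcripts were led by an antagonist, and under hypoxia by Myc. Per kilobase of exon, control levels ran from Mxd4 at 19.9 ± 0.809 (SD, n = 3) CPM per kb through Max at 12.7 ± 0.586 to Myc at 8.20 ± 0.137. Mga, Mnt and Mxi1 followed at 6.94, 5.23 and 3.73 CPM per kb in that order. Mxd3 (2.68 CPM per kb) and Mycn (2.39) overlapped in their control libraries, and Mxd1 (1.72) was the lowest tested member. In hypoxia the order opened with Myc at 41.6 ± 9.95 CPM per kb, then Max at 20.6 ± 3.89 and Mxd4 at 9.77 ± 0.476. Below them Mnt (7.42 CPM per kb) overlapped Mga (6.57), Mycn (3.41) overlapped Mxd1 (2.79), and Mxi1 (2.04) stood lowest among the tested genes. Hypoxia + rSRGN kept the first 3 places, with Myc at 47.5 ± 5.64, Max at 17.6 ± 0.637 and Mxd4 at 11.1 ± 0.686 CPM per kb, and in its lower part Mnt overlapped Mga, Mycn overlapped Mxd1 and Mxd1 overlapped Mxd3.

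**Figure D1:**
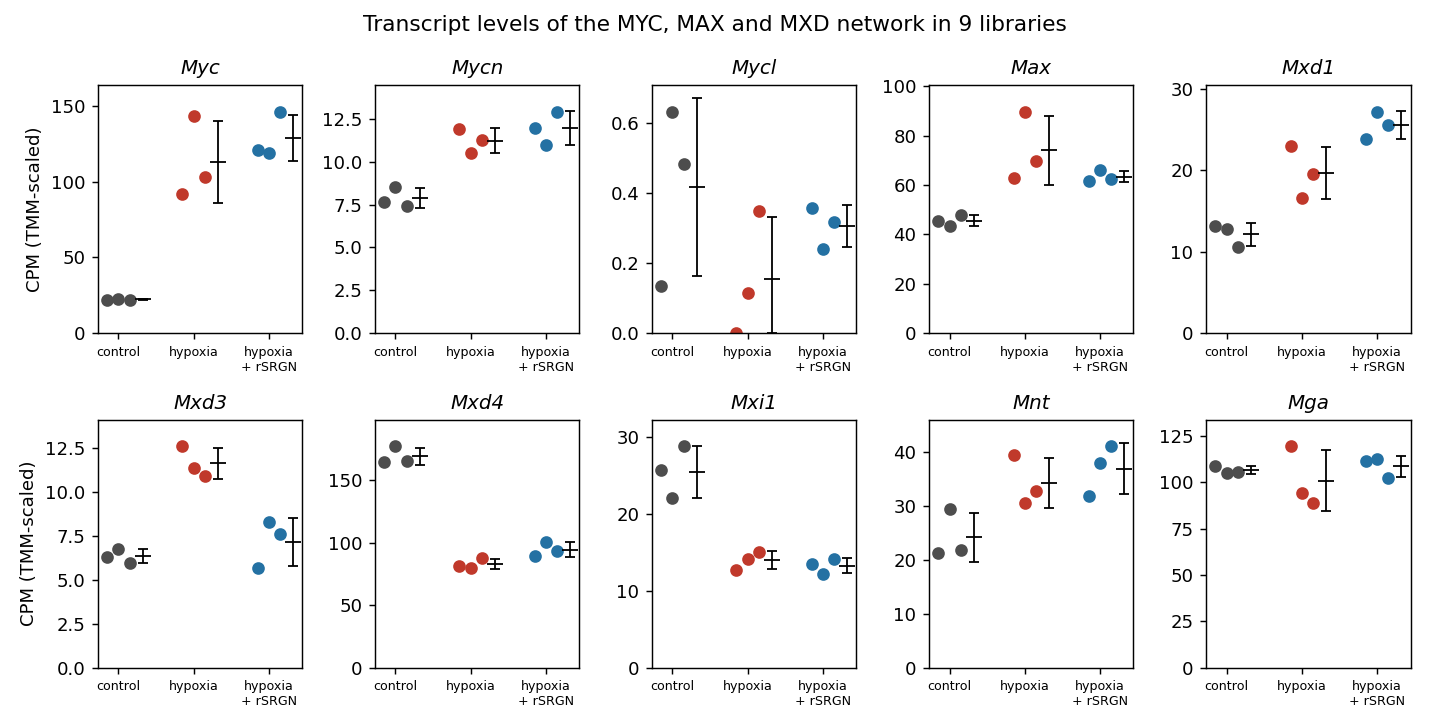
CPM of each of the 10 network genes (vertical axes from 0, a scale for each gene) in the control, hypoxia and hypoxia + rSRGN libraries. Points are single libraries, and the bars beside them give the mean and SD of 3 libraries (cut at 0 for Mycl). The Myc points rise from about 22 CPM in control to between 92.3 and 147 CPM in the other libraries, while Mxd4 and Mxi1 sit lower in every hypoxia library than in every control library.

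The first comparison asked which network genes differed between hypoxia and control. Of the 9 tested members, 6 were called: Myc, Max, Mxd1 and Mxd3 were higher, and Mxd4 and Mxi1 were lower. Over all genes tested, 51.6% were called (26.4% higher and 25.1% lower), so a high count of called members is the background of this comparison. The groups did not overlap for 8 of the 9 members, against 73% of all genes. Before the fold limit, 8 members had an adjusted p under 0.05, against 70.9% of all genes. The median log2 change of the members was 0.51, against 0.05 for all genes.

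Among the activators, Myc (15:61985391-61990374, plus strand, GRCm38, ENSMUSG00000022346.16) had the largest change of the network. It was measured at 22.1, 22.7 and 22.1 CPM in the 3 control libraries and at 92.3, 144 and 103 CPM in the 3 hypoxia libraries. The lowest hypoxia library lay far above the highest control library, and the hypoxia libraries were more spread out than the control libraries. Hypoxia was 5.07-fold higher (95% interval 4.23 to 6.07; log2 change 2.34, SE 0.13; adjusted p = 2.01e-13), and 4.11% of the tested genes had a larger log2 change. Mycn (12:12936093-12941914, minus strand, ENSMUSG00000037169.15), the paralogue that drives myocyte growth in the embryonic ventricle, was measured at 7.64, 8.54 and 7.44 CPM in control and at 11.9, 10.5 and 11.3 CPM in hypoxia. The groups did not overlap and the adjusted p was 0.00147, but the log2 change of 0.51 (SE 0.13) stayed under the fold limit, so Mycn was not called. Mycl (4:122995652-123002485, plus strand, ENSMUSG00000028654.13), the third paralogue, had 3, 14 and 10 counts in control, 0, 2 and 6 in hypoxia and 6, 5 and 6 in hypoxia + rSRGN, and was not tested. The sums were 27, 8 and 17 counts, and the control and hypoxia libraries overlapped. The hypoxia library at 0 allows up to 3 counts, or 0.161 CPM, by counting error alone.

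Max (12:76937269-76962201, minus strand, ENSMUSG00000059436.13), the shared partner, rose less than Myc. It was measured at 45.3, 43.5 and 47.7 CPM in control and at 62.8, 89.7 and 69.8 CPM in hypoxia. Every hypoxia library was above every control library, with hypoxia replicate 2 the highest, as it was for Myc. The change was 1.63-fold (log2 0.70, SE 0.10; adjusted p = 1.82e-06). It rested on replicate 2 for its size: without that library the log2 change was 0.54 (adjusted p = 2.44e-06), under the fold limit. The ratio of Myc to Max per kilobase was 0.613 to 0.691 in control libraries, 1.95 to 2.12 in hypoxia libraries and 2.39 to 3.11 in hypoxia + rSRGN libraries, so the 3 groups did not overlap.

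The MXD antagonists moved in both directions. Mxd1 (6:86647042-86669161, minus strand, ENSMUSG00000001156.9), a repressor that is induced as blood and epithelial cells differentiate, was measured at 13.1, 12.8 and 10.5 CPM in control and at 23.0, 16.6 and 19.5 CPM in hypoxia. The groups did not overlap, and hypoxia was 1.62-fold higher (log2 change 0.70, SE 0.13; adjusted p = 3.98e-05). Without hypoxia replicate 1, the highest of the 3, the log2 change was 0.57 (adjusted p = 0.000514) and Mxd1 was no longer called. Mxd3 (13:55325168-55329823, minus strand, ENSMUSG00000021485.14), an MXD protein linked to S phase in dividing progenitor cells, was measured at 6.29, 6.77 and 5.99 CPM in control and at 12.6, 11.4 and 10.95 CPM in hypoxia. All hypoxia libraries were well above the control libraries, and the change was 1.83-fold (log2 0.87, SE 0.15; adjusted p = 2.78e-05). Exons of Mxd3 overlap those of Prelid1, a mitochondrial lipid transfer gene on the opposite strand, and the counting used no strand, so reads of the shared stretch cannot be told apart. Prelid1 itself went from 145.5 ± 6.35 to 237.1 ± 15.7 CPM (SD, n = 3; log2 change 0.70, adjusted p = 1.03e-08), and its part in the Mxd3 counts was not tested.

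Mxd4 and Mxi1 were the members that fell. Mxd4 (5:34173883-34187720, minus strand, ENSMUSG00000037235.13), whose product represses through SIN3 and is abundant in resting cells, was measured at 165, 177 and 165 CPM in control and at 81.6, 79.6 and 87.4 CPM in hypoxia. The groups lay far apart with little spread inside each, and the control level was 2.04-fold the hypoxia level (log2 change −1.03, SE 0.07; adjusted p = 2.9e-11). Mxi1 (19:53310518-53375810, plus strand, ENSMUSG00000025025.14), also called MXD2, was measured at 25.6, 22.0 and 28.8 CPM in control and at 12.7, 14.1 and 15 CPM in hypoxia. Every hypoxia library was below every control library, and the control level was 1.83-fold the hypoxia level (log2 change −0.87, SE 0.12; adjusted p = 8.52e-07). The summed level of the 20 cardiomyocyte markers fell with both genes, and by more: per 1000 CPM of these markers, Mxd4 was 2.23 to 2.7 CPM in control and 10.1 to 17 CPM in hypoxia, and Mxi1 was 0.314 to 0.42 and 1.58 to 2.92 CPM.

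Mnt (11:74830920-74845725, plus strand, ENSMUSG00000000282.12), the broadly expressed MYC antagonist, was measured at 21.3, 29.4 and 21.9 CPM in control and at 39.5, 30.6 and 32.8 CPM in hypoxia. The lowest hypoxia library was just above the highest control library. The adjusted p was 0.0014, but the log2 change of 0.50 (SE 0.13) stayed under the fold limit. Without control replicate 2 it was 0.65 (adjusted p = 0.000204) and passed the limit. Mga (2:119897228-119969581, plus strand, ENSMUSG00000033943.15), the MAX partner in PRC1.6, was measured at 109, 105 and 106 CPM in control and at 120, 94.1 and 88.7 CPM in hypoxia. The hypoxia libraries lay on both sides of the control libraries, and no difference was detected (log2 change −0.08, 95% interval −0.26 to 0.11; adjusted p = 0.441). This rested on hypoxia replicate 1, the highest library for Mga: without it the log2 change was −0.22 (adjusted p = 0.0206), still under the fold limit. Hypoxia replicate 1 was also the highest of its group for Mycn, Mxd1, Mxd3 and Mnt and the lowest for Myc, Max and Mxi1.

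**Figure D2:**
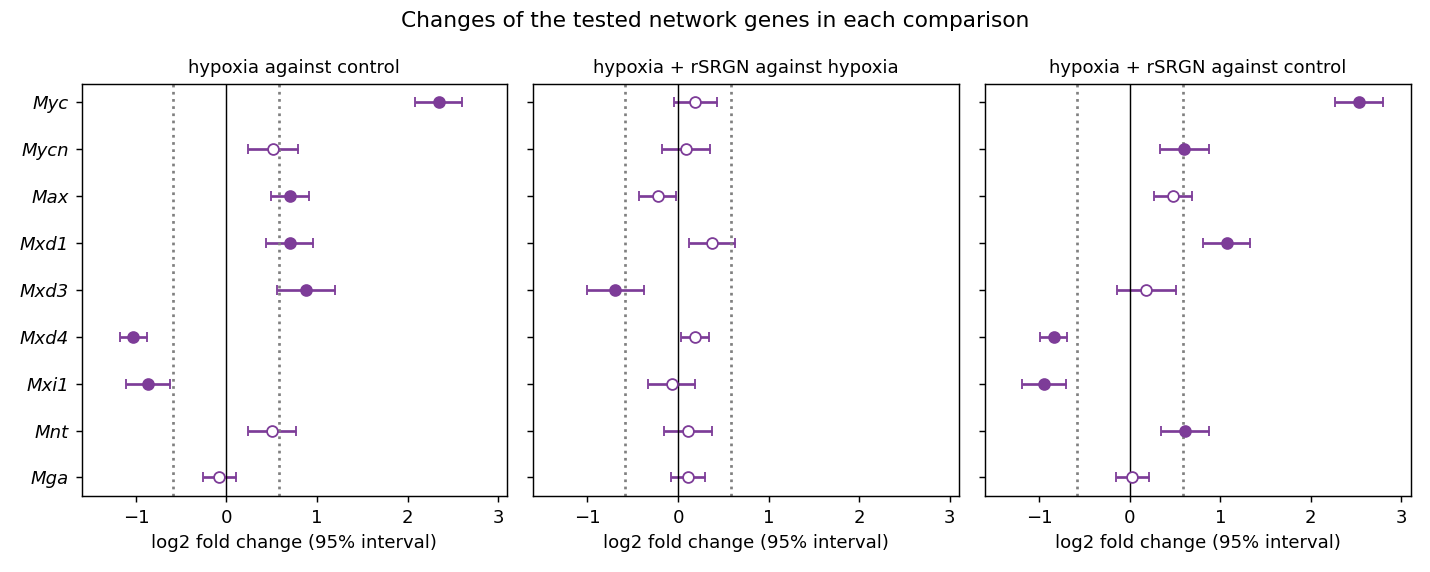
Log2 fold change (horizontal axis) with its 95% interval for the 9 tested network genes in the 3 comparisons. Filled points were called, dotted lines mark the fold limit, and the Myc points at 2.34 and 2.53 stand furthest from 0.

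Fibroblast markers rose in the same libraries as Myc, Max, Mxd1 and Mxd3, with a median log2 change of 0.97 over 15 genes and the largest at 1.53. Per 1000 CPM of the summed fibroblast markers, Myc was 1.69 to 1.98 CPM in control and 3.5 to 6.19 CPM in hypoxia. In hypoxia + rSRGN it was 4.47 to 5.57 CPM. On the same scale Max was 3.39 to 4.06 CPM in control and 2.38 to 3.87 CPM in hypoxia, and Mxd1 was 0.805 to 1.18 CPM and 0.715 to 0.873 CPM. Mxd3 was 0.458 to 0.563 CPM in control and 0.426 to 0.491 CPM in hypoxia. With rSRGN, Max was 2.37 to 2.47 CPM and Mxd3 0.221 to 0.311 CPM, both below every control library, and Mxd1 was 0.931 to 1.02 CPM, inside the control range. On this scale the control and hypoxia libraries overlapped for Max, Mxd1 and Mxd3, and they did not overlap for Myc. Per 1000 CPM of the cardiomyocyte markers, each of these genes was higher in hypoxia, with no overlap. Max was 0.621 to 0.744 CPM in control and 7.81 to 13.6 CPM in hypoxia, and Mxd1 0.142 to 0.215 and 2.19 to 3.8 CPM. Mxd3 was 0.0809 to 0.103 and 1.5 to 2.13 CPM, and Myc 0.298 to 0.362 and 11.5 to 20.1 CPM. Per 1000 CPM of the fibroblast markers, Mxd4 was 12.6 to 14.7 CPM in control and 3.1 to 3.43 CPM in hypoxia. Mxi1 was 1.71 to 2.29 and 0.481 to 0.608 CPM on the same scale. Both sets of markers differed between the groups themselves, so these ratios do not measure the share of a cell type. What part the mix of cells had in the changes was not tested.

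Taken per exon length, the make-up of the network turned over. Myc, Mycn and Mycl made up 16.6% to 17% of the summed CPM per kb of the 10 genes in control libraries, 41.1% to 49.9% in hypoxia libraries and 46.2% to 52.3% in hypoxia + rSRGN libraries. Myc alone accounted for 12.8% to 13% in control and 37.2% to 47% in hypoxia. The MXD genes, Mnt and Mga together made up 62.3% to 64.4% in control, 27.9% to 39.8% in hypoxia and 32% to 35.8% in hypoxia + rSRGN. Their summed level moved less than their share, from 40.2 ± 1.5 CPM per kb in control to 33.5 ± 2.6 in hypoxia and 34.8 ± 2.16 in hypoxia + rSRGN (SD, n = 3). The share of Max was 18.6% to 21% in control and 19.1% to 22.2% in hypoxia, which overlap, and 15.7% to 17.9% in hypoxia + rSRGN, below both. These are shares of transcripts and carry no measure of protein. The order, shares and ratios per kb use the length of all annotated exons of a gene. This can differ from the length of the transcript expressed. Those that include Mxd3 also carry any Prelid1 reads counted there.

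The balance among the antagonists also shifted. The level of Mxd4 per kilobase was 10.5 to 13.1 times that of Mxd1 in control libraries, 2.96 to 4.003 times in hypoxia libraries and 3.04 to 3.13 times in hypoxia + rSRGN libraries. Mxi1 stood at 1.78 to 2.83 times Mxd1 in control and at 0.572 to 0.881 times Mxd1 in hypoxia, so the order of this pair turned. Among the activators, Myc stood at 3.23 to 3.60 times Mycn per kilobase in control and at 9.39 to 16.6 times Mycn in hypoxia. Myc over the sum of the MXD genes and Mnt was 0.238 to 0.252 in control, 1.19 to 2.10 in hypoxia and 1.497 to 1.88 in hypoxia + rSRGN. These ratios were taken within each library, so library scaling does not enter them.

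**Figure D3:**
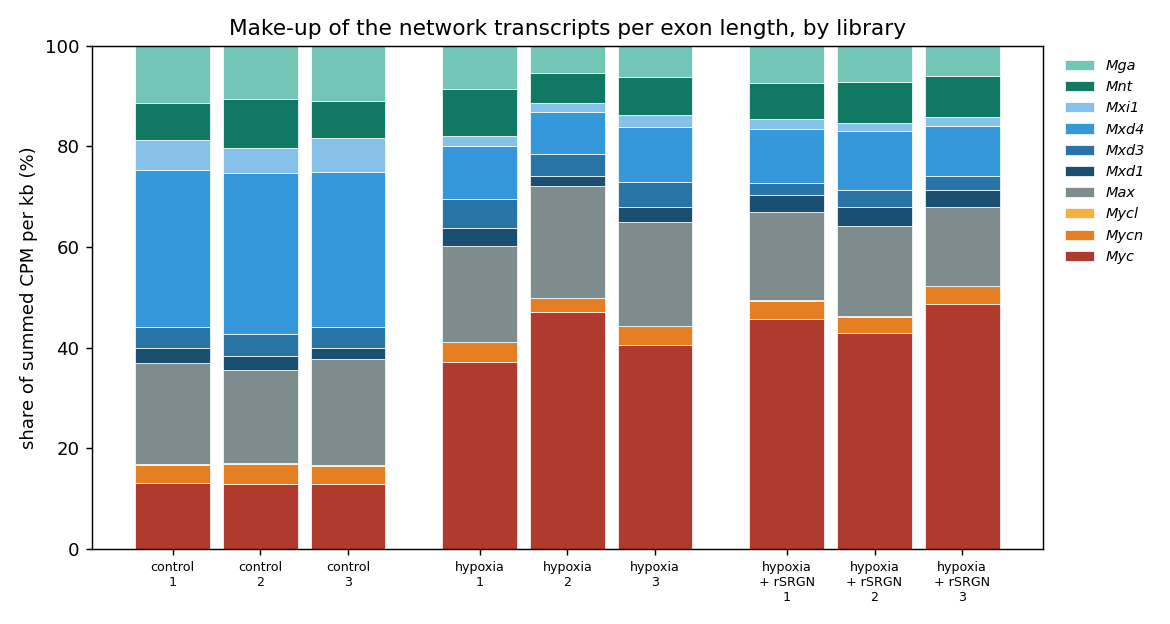
Share of each network gene in the summed CPM per kb of the 10 genes (vertical axis, %), with a stacked bar for each of the 9 libraries and genes stacked in the order of the key. The red Myc segment is 12.8% to 13% in control and at least 37.2% in the other libraries, and the Mxd4 segment is 30.9% to 32% in control and at most 11.6% in the others.

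The second comparison set hypoxia + rSRGN against hypoxia, which differ by the recombinant protein. Of the 9 tested members, 1 was called, Mxd3, which was lower, and 0 were higher. Over all genes tested 3.13% were called, 2.27% higher and 0.859% lower. Before the fold limit, 2 members had an adjusted p under 0.05 (Mxd3 and Mxd1), against 16.6% of all genes, and 4 had an unadjusted p under 0.05, against 29.4% of all genes. DESeq2 also called 1 member. The groups did not overlap for Mxd1, Mxd3 and Mxd4, against 32% of all genes. Beside these changes, 16 of the 20 cardiomyocyte markers were higher with rSRGN (median log2 change 0.75).

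Mxd3 was measured at 12.6, 11.4 and 10.95 CPM in hypoxia and at 5.66, 8.29 and 7.61 CPM in hypoxia + rSRGN. Each rSRGN library was below each hypoxia library, the first of them the lowest. The hypoxia level was 1.61-fold the level with rSRGN (log2 change −0.69, SE 0.15; adjusted p = 0.00381). The call rested on hypoxia + rSRGN replicate 1: without it the log2 change was −0.55 (adjusted p = 0.0318), under the fold limit, and 0 members were called. The overlapping gene Prelid1 was at 195.4 ± 5.85 CPM with rSRGN (SD, n = 3), with a log2 change of −0.28 (adjusted p = 0.00972).

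Mxd1 moved the other way. It was measured at 23.0, 16.6 and 19.5 CPM in hypoxia and at 23.8, 27.2 and 25.6 CPM with rSRGN. The groups did not overlap, though the highest hypoxia library was close to the lowest rSRGN library. The log2 change was 0.37 (1.30-fold, SE 0.12; adjusted p = 0.0367), which passed the p threshold and not the fold limit. The adjusted p depended on single libraries and on the scaling: it was 0.0566 with scaling by library size alone, 0.0528, 0.151 and 0.0704 without hypoxia + rSRGN replicates 1, 2 and 3, and 0.127 and 0.0854 without hypoxia replicates 2 and 3. Mxd4 was measured at 81.6, 79.6 and 87.4 CPM in hypoxia and at 89.4, 101 and 93.1 CPM with rSRGN, a log2 change of 0.19 (SE 0.07; adjusted p = 0.0859), with an adjusted p of 0.0285 in DESeq2. Its rSRGN libraries all lay between the hypoxia and the control libraries.

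Myc was measured at 92.3, 144 and 103 CPM in hypoxia and at 121, 119 and 147 CPM with rSRGN. The groups overlapped, and no difference was detected (log2 change 0.19, 95% interval −0.05 to 0.43; adjusted p = 0.279). Without hypoxia replicate 2, the hypoxia library highest in Myc, the log2 change was 0.40 (adjusted p = 0.00154). For Max, the log2 change was −0.23 (95% interval −0.43 to −0.02; adjusted p = 0.127), with rSRGN libraries at 61.5, 65.9 and 62.5 CPM inside or just below the range of the hypoxia libraries. Without hypoxia replicate 1, the lowest for Max, it was −0.33 (adjusted p = 0.0217). Mycn, Mxi1, Mnt and Mga had log2 changes of 0.09, −0.07, 0.11 and 0.11 in that order, with adjusted p from 0.458 to 0.752. For Mga it was 0.25 without hypoxia replicate 1 (adjusted p = 0.0389).

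The third comparison set hypoxia + rSRGN against control, and it shares its control libraries with the first and its rSRGN libraries with the second. Here 6 members were called, Myc, Mycn, Mxd1 and Mnt higher and Mxd4 and Mxi1 lower, against 48.8% of all genes (24.1% higher, 24.7% lower). The groups did not overlap for 7 members, against 73.3% of all genes, and 7 had an adjusted p under 0.05 before the fold limit, against 68.6%. Myc was 5.79-fold higher (log2 change 2.53, SE 0.13; adjusted p = 6.81e-14). Mxd1 was 2.10-fold higher than control, a log2 change of 1.07 (SE 0.12; adjusted p = 9.09e-08). The control level of Mxd4 was 1.79-fold and that of Mxi1 1.92-fold the level with rSRGN (log2 changes −0.84 and −0.94; adjusted p = 9.28e-10 and 2.92e-07).

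Mycn and Mnt passed the fold limit narrowly in this comparison. Mycn was at 11.98, 10.98 and 12.9 CPM with rSRGN (log2 change 0.60, SE 0.13; adjusted p = 0.000318). Its log2 change was 0.57 without control replicate 1, 0.56 without control replicate 3 and 0.54 without hypoxia + rSRGN replicate 3, all under the limit. Mnt was at 31.8, 38.1 and 41.2 CPM with rSRGN (log2 change 0.61, SE 0.13; adjusted p = 0.000206), above each control library. Leaving out the same 3 libraries gave 0.52, 0.54 and 0.53, and a filter of 1 count in all libraries together gave 0.57 for Mnt and 0.56 for Mycn. Max had a log2 change of 0.48 (1.39-fold; adjusted p = 0.000242) and was not called. Mxd3, with 1 rSRGN library below the control libraries and 2 above them, had a log2 change of 0.18 (95% interval −0.14 to 0.51; adjusted p = 0.308).

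Genes that act with or under the network were described from 6 lists. Of 40 MYC-induced genes, 15 were higher and 4 lower in hypoxia than in control, 47.5% called against 51.6% of all genes, with a median log2 change of 0.35. Those that rose most were Hspe1, a mitochondrial chaperonin subunit, from 82.4 ± 2.33 to 542 ± 26.5 CPM (SD, n = 3; log2 2.72, adjusted p = 7.81e-18), and Tfap4, a transcription factor, from 2.71 ± 0.661 to 10.6 ± 3.66 CPM (log2 1.97, adjusted p = 1.78e-07). Npm1, which assembles ribosomes, rose by 1.39 on the log2 scale, Odc1, the first enzyme of polyamine synthesis, by 1.33, and Cdk4, a cell cycle kinase, by 0.96. Ncl, the nucleolar protein nucleolin, had a log2 change of 0.14 (adjusted p = 0.0891). Tfrc, the transferrin receptor, was the gene that fell most, from 282 ± 24.3 to 19.0 ± 2.73 CPM (log2 −3.89, adjusted p = 5.34e-18). Slc29a2, a nucleoside transporter, went from 24.9 ± 1.78 to 2.47 ± 0.399 CPM (log2 −3.33, adjusted p = 3.05e-14).

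The promoter E-box was also counted in these genes. Of 33 MYC-induced genes with a RefSeq promoter window, 10 held CACGTG (30.3%), against 8.09% of all genes. They were 3 of 11 that were higher in hypoxia, 1 of 4 that were lower and 6 of 18 that were not called.

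Of 9 genes that MYC is known to repress, 5 were higher and 2 lower in hypoxia, 77.8% called against 51.6% of all genes, with a median log2 change of 0.98 against 0.05. Gadd45a, a stress-induced growth arrest gene, went from 8.24 ± 1.13 to 29.5 ± 4.15 CPM (SD, n = 3; log2 1.84, adjusted p = 9.25e-12). Ddit3, which encodes the stress factor CHOP, went from 21.0 ± 0.492 to 72.6 ± 16.1 CPM (log2 1.79, adjusted p = 3.42e-12). Cdkn1a, the cell cycle inhibitor p21, rose by 0.98 on the log2 scale and Ndrg1, a stress-responsive gene, by 1.48. Ndrg2 fell from 713 ± 31.2 to 123 ± 14.8 CPM (log2 −2.54, adjusted p = 8.59e-17). Cebpa, a differentiation factor, had a log2 change of −0.62 (adjusted p = 0.0232), while it was −0.49 without control replicate 2 (adjusted p = 0.109), −0.50 without hypoxia replicate 1 (adjusted p = 0.094), and −0.55 with scaling by library size alone, so its call rested on single libraries and on the scaling.

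Of 31 cofactors and regulators of MYC stability, 9 were higher and 5 lower in hypoxia (45.2% called against 51.6% of all genes, median log2 change −0.02). Bin1, which encodes a MYC-interacting adaptor that in muscle also shapes T-tubules, went from 24.5 ± 2.71 to 63.2 ± 3.19 CPM (SD, n = 3; log2 1.37, adjusted p = 1.37e-11). Pim1, a kinase that stabilises MYC, went from 22.8 ± 2.34 to 47.9 ± 6.16 CPM (log2 1.07, adjusted p = 3.84e-09). Usp28, a deubiquitinase that protects MYC, fell from 180 ± 7.10 to 28.6 ± 4.90 CPM (log2 −2.66, adjusted p = 3.51e-16). Fbxw7, the ubiquitin ligase subunit that marks MYC for degradation, fell by 1.18 on the log2 scale (adjusted p = 1.01e-10). Hcfc1, a coactivator scaffold, fell from 170 ± 6.50 to 75.1 ± 2.15 CPM (log2 −1.18, adjusted p = 1.42e-12).

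The partners of the antagonists were described next. Of 15 tested SIN3 corepressor genes, 2 were higher and 2 lower, 26.7% called against 51.6% of all genes. Sap18 and Hdac1, a SIN3 subunit and its deacetylase, had log2 changes of 0.83 and 0.81, whereas Sin3a, the scaffold that MXD and MNT bind, fell from 67.2 ± 2.20 to 27.6 ± 1.32 CPM (SD, n = 3; log2 −1.28, adjusted p = 8.88e-12). Ncor1, another corepressor, fell from 177 ± 1.30 to 102 ± 12.8 CPM (log2 −0.80, adjusted p = 9.36e-09). Of 13 PRC1.6 genes, 1 was higher (Tfdp1, log2 0.77) and 2 were lower (L3mbtl2, log2 −0.90, and E2f6, log2 −0.84), 23.1% called against the same 51.6%. The MLX arm is a parallel set of sugar-sensing factors that pair with MLX in place of MAX. Of its 5 genes 0 were higher and 4 lower, 80% called against 51.6% of all genes (25.1% lower). Their median log2 change was −0.94. Among them Mlxipl, which encodes ChREBP, had 50, 70 and 46 counts in control and 5, 2 and 2 in hypoxia (adjusted p = 4.69e-07). In 2 of the 3 hypoxia libraries its counts lie under the floor of 3 counts per library, so the size of its fold change is uncertain, and with a filter of 10 counts in every library 3 MLX genes were called. Txnip, the glucose-responsive target of this arm, fell from 108 ± 9.89 to 31.1 ± 4.04 CPM (log2 −1.79, adjusted p = 2.45e-13). With 9 or fewer genes in the repressed and MLX lists, their shares rest on few genes.

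With rSRGN against hypoxia, 1 of 40 MYC-induced genes (2.5%) and 2 of 31 cofactors (6.45%) were called, against 3.13% of all genes. Tfrc was the MYC-induced gene, at 31.0 ± 3.84 CPM against 19.0 ± 2.73 CPM (SD, n = 3; log2 0.71, adjusted p = 0.000223). Among the cofactors, Pim1 was higher, at 75.9 ± 4.89 against 47.9 ± 6.16 CPM (log2 0.67, adjusted p = 0.00015). Aurka, a mitotic kinase that stabilises MYCN, was lower at 17.2 ± 1.31 against 26.2 ± 3.54 CPM (log2 −0.61, adjusted p = 0.0011), but its log2 change was −0.49 without hypoxia replicate 2, −0.54 without hypoxia + rSRGN replicate 2 and −0.58 in DESeq2, all under the fold limit. In the repressed, SIN3, PRC1.6 and MLX lists 0 genes were called by edgeR or by DESeq2, and 1 of 9, 7 of 15, 6 of 13 and 2 of 5 genes in that order had an unadjusted p under 0.05, against 29.4% of all genes. The median log2 changes were −0.14 for the MYC-induced list and 0.23 for the MLX arm, against −0.03 for all genes. In the MYC-induced list 16 of 40 genes had an unadjusted p under 0.05, and 7 of 40 had a log2 change above 0. Among the cofactors these counts were 16 of 31 and 13 of 31.

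**Figure D4:**
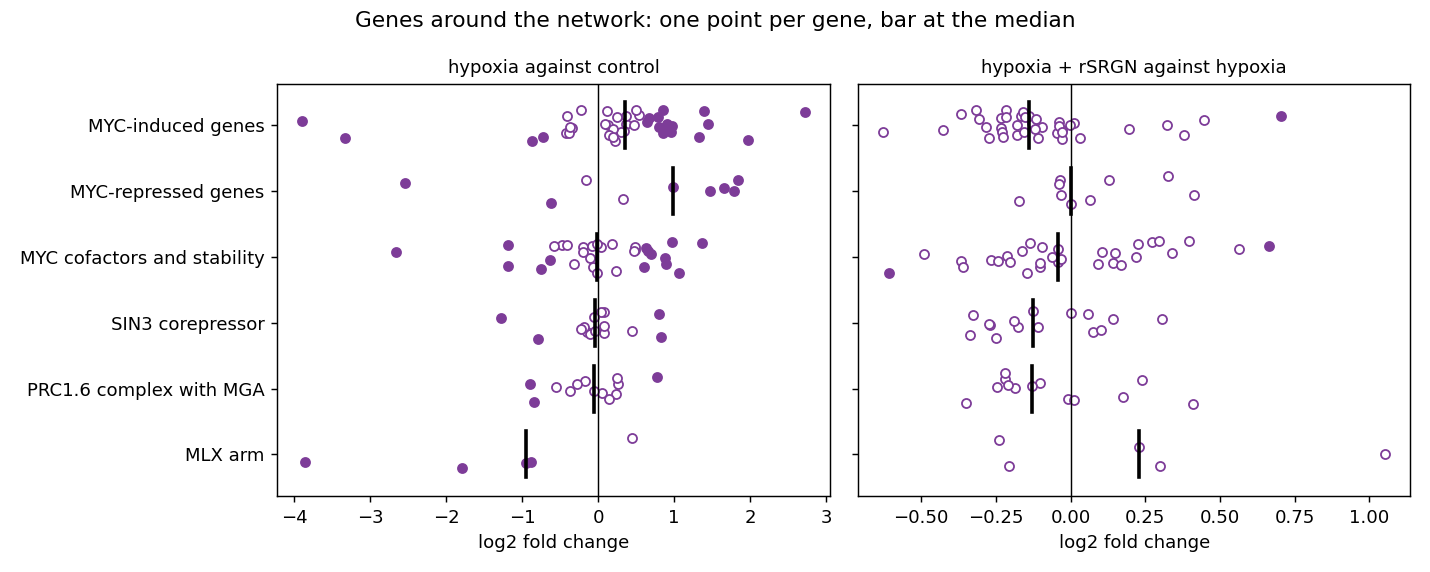
Log2 fold change (horizontal axes, which differ in scale) of each tested gene of the 6 lists in hypoxia against control and in hypoxia + rSRGN against hypoxia. Each point is a gene, filled where it was called, and the bar is the list's median, which is 0.98 for the MYC-repressed genes and −0.94 for the MLX arm in hypoxia against control.

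In hypoxia + rSRGN against control, 48.8% of all genes were called. The called list genes were 17 of 40 MYC-induced genes (42.5%), 6 of 9 repressed genes (66.7%), 8 of 31 cofactors (25.8%), 1 of 15 SIN3 genes (6.67%), 5 of 13 PRC1.6 genes (38.5%) and 4 of 5 MLX genes (80%). The MLX arm again had 0 genes higher.

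The genes whose profile was most like that of Myc over the 9 libraries, by Pearson's r of log2 CPM, were AI506816 (0.999), Plaur, the urokinase receptor (0.999), and Gla, a lysosomal galactosidase (0.997). As 1616 of the other 16761 tested genes had r over 0.95 with Myc, such likeness was common. For Max the closest were Tspan31 (0.991), Gm7964 (0.991) and Tmed10, a secretory pathway receptor (0.989), with 210 genes over 0.95. For Mxd1 they were Ncoa3, a nuclear receptor coactivator (0.977), Gm24507 (0.977) and Cfap70 (0.976), with 78 genes over 0.95. Within the network, Myc had r of −0.96 with Mxd4, −0.94 with Mxi1 and 0.93 with Mycn. The 9 libraries form 3 groups, so these values mostly carry the difference between groups, and they are descriptions with no test.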

How the data were processed

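The authors deposited whole-number read counts per gene in a table made with featureCounts 2.0.1 (paired ends, exons summed by gene, no strand option) and GENCODE mouse release 25 on GRCm38, and the submitters' processing notes name HISAT2 and mm10. Samples were grouped by their titles. The members and gene lists were chosen with earlier results of these data known. The named list genes are up to 2 called genes with the largest rise and 2 with the largest fall per list in the first 2 comparisons, and Npm1, Odc1, Cdk4, Ncl, Cdkn1a, Ndrg1, Fbxw7 and Prelid1 were added after their values were seen. From the deposited counts, edgeR 4.0.16 in R 4.3.3 (filterByExpr, TMM, glmQLFit and glmQLFTest, 1 fit over 9 libraries) tested 3 comparisons with Benjamini-Hochberg adjustment over all tested genes, after the script was tested on simulated data. Alternatives were DESeq2 1.42.0, other scalings and filters, no fold limit, only the groups compared, a replicate block and leaving out each library. Same-group libraries differed by more than counting noise (chi-square per degree of freedom 3.81 to 14.7), and all count columns were used. Promoter sequences came from RefSeq. Ddit3 stood in 2 rows of the table, and the row with more counts was used.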

Additional observations from a re-analysis of the deposited data

How the results depend on the processing

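The number of members called was 6 in hypoxia against control and 6 in hypoxia + rSRGN against control under DESeq2, other scalings, the stricter filter and only the groups compared. Leaving out a library gave 5 to 7 and 4 to 6, and a filter of 1 count in all libraries together gave 4 in the latter. With rSRGN against hypoxia, leaving out a library gave 0 to 1 members, 321 to 699 of all genes (525 with all libraries), 1 to 2 MYC-induced genes and 1 to 3 cofactors. The lowest counts came without hypoxia replicate 3 for all genes, without hypoxia + rSRGN replicate 1 for members and without hypoxia + rSRGN replicate 2 for cofactors, and the 2 MYC-induced genes came without hypoxia replicate 2. Scaling by library size alone and the filter of 1 count each gave 2 MYC-induced genes.

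Without the fold limit, hypoxia against control gave 34 of 40 MYC-induced genes, 24 of 31 cofactors and 10 of 13 PRC1.6 genes (70.9% of all genes). rSRGN against hypoxia then gave 2790 of all genes (16.6%), 2 members, 9 MYC-induced genes, 1 of 9 repressed genes, 10 cofactors, 4 of 15 SIN3 genes and 3 PRC1.6 genes, and rSRGN against control gave 29 MYC-induced genes, 20 cofactors, 8 SIN3 genes and 10 PRC1.6 genes (68.6% of all genes). This follows from the looser rule. Mga, which was not called in any comparison, ran from −0.22 to 0.0035 in hypoxia against control when a library was left out, with the positive value without hypoxia replicate 3, and was −0.012 in rSRGN against control with the filter of 1 count. Of the calls in rSRGN against hypoxia, 72.6% were higher, and over the alternatives this share ran from 62.6% (without hypoxia replicate 3) to 81.1% (DESeq2), with 66.9% under library size alone.

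The replicate numbers did not pair the libraries: the deviations of same-numbered libraries had r of −0.04 to 0.02. The fit with a replicate block called 8550, 495 and 8096 genes in the 3 comparisons and 6, 1 and 6 members. Mxd3, Mycn and Mycl rest on the fewest counts of the network.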
